A study of Mus musculus with 12 samples.

Results

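The genes described here make, control, take up, move and export cholesterol. They were chosen by name, as a list of 31 genes read over all 12 arrays, drawn up with earlier results of these data known. A probe carried the name of 27 of them, and 23 of those passed the detection filter, among 10211 genes that passed it in all. The 31 genes fall into 18 genes of synthesis, 5 of SREBP control, 4 of uptake and transport within the cell, and 4 of efflux. The cells are OP9, a mouse stromal line labelled as mesenchymal stem cells from newborn calvaria. All 4 groups are 1 line of the strain B6C3F1 op/op, so every group, vehicle included, carries the op/op mutation of the growth factor gene Csf1. The groups are vehicle, labelled 0 h, and imatinib, an inhibitor of tyrosine kinases, at 32, 64 and 96 h, with 3 arrays each. The sources used here give no dose of imatinib and do not say if the arrays of a group came from different cultures, so the p-values reflect the spread among these arrays alone, which may be technical. The series' design text can also be read as vehicle kept for the same times as the drug. With the vehicle labelled 0 h, drug and time in culture cannot be told apart.

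Cells build cholesterol from acetyl-CoA through mevalonate, squalene and lanosterol. When sterols in the endoplasmic reticulum run low, the escort protein Scap carries the SREBP precursors to the Golgi, where proteases free a transcription factor that switches on the genes of synthesis and uptake. When sterols are plentiful, the Insig proteins hold Scap back, and the nuclear receptors LXR, which sense oxysterols, switch on the export pumps. Fat cells, which OP9 cells can turn into, hold much free cholesterol at their lipid droplets.

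The arrays are Illumina BeadChips read in 1 colour. Values are log2 of the background-corrected, quantile-normalized intensity, in which 1 unit is a doubling. A level belongs to its own probe and is not set against that of another gene. Whether groups overlap is given only as a description of the arrays, since the share of all genes without overlap was not counted. Median raw signal lay between 103.7 and 111.7 on the 12 arrays, and 35.7% to 38.3% of 45281 probes were detected per array, and the few arrays in each group limit the precision. The vehicle and 96 h arrays carry array label 1 in the sample descriptions, and the 32 h and 64 h arrays carry array label 2. The 32 h and 64 h comparisons with vehicle, and 96 h with 64 h, therefore cross array labels, and array label and group cannot be told apart in them. In a principal component analysis, imatinib 32 h replicate 3 and imatinib 64 h replicate 3 lay at opposite ends of the third component, which held 7.07% of the variance. Calls that changed without these 2 arrays are given beside the result. The samples are bulk RNA, so fewer cells of a type and less RNA per cell cannot be told apart.

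Against vehicle, a few sterol genes rose under imatinib and Insig2 fell at all 3 times. The fall of Insig2 passed on both of its kept probes at 96 h and on 1 of them at 32 h and 64 h. Squalene epoxidase, Sqle, was higher at 32, 64 and 96 h, on 1 of its 2 kept probes. Hsd17b7, Insig1 and Stard4 were higher at 32 h and 64 h, Insig1 on 1 of its 3 kept probes. In limma, with an adjusted p under 0.05 over all kept probes, 4 of 23 genes rose and 1 fell at 32 h, 17.4% and 4.35% of the 23, against 2.09% higher and 2.08% lower among all 10211 genes. At 64 h 5 of 23 (21.7%) rose and 1 fell, against a background of 6.33% higher and 6.08% lower. At 96 h 2 of 23 rose and 1 fell, against 7.51% higher and 7.37% lower, which is 8.70% and 4.35% of the 23 and so near the background. The median log2 change of the 23 genes was 0.12 at 32 h, 0.23 at 64 h and 0.12 at 96 h, where the median of all genes was 0.0018, 0.0017 and 0.0021. At each of these times 16 of the 23 lay above 0. The 3 comparisons share the vehicle arrays, so their counts are not independent. Vehicle replicate 2 weighed on them: without it the count of higher genes was 0 at 32 h, 2 at 64 h and 1 at 96 h, and the count of lower genes at 32 h was 0. At 32 h the higher count was 1 without imatinib 32 h replicate 2, imatinib 32 h replicate 3 or vehicle replicate 3, 2 without vehicle replicate 1, and 2 without both arrays that stood apart. The lower count at 32 h was 0 without imatinib 32 h replicate 1 or 2. At 64 h the higher count was 3 without imatinib 64 h replicate 1 or vehicle replicate 3, and at 96 h it was 1 without imatinib 96 h replicate 2 or vehicle replicate 3.

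**Figure D1:**
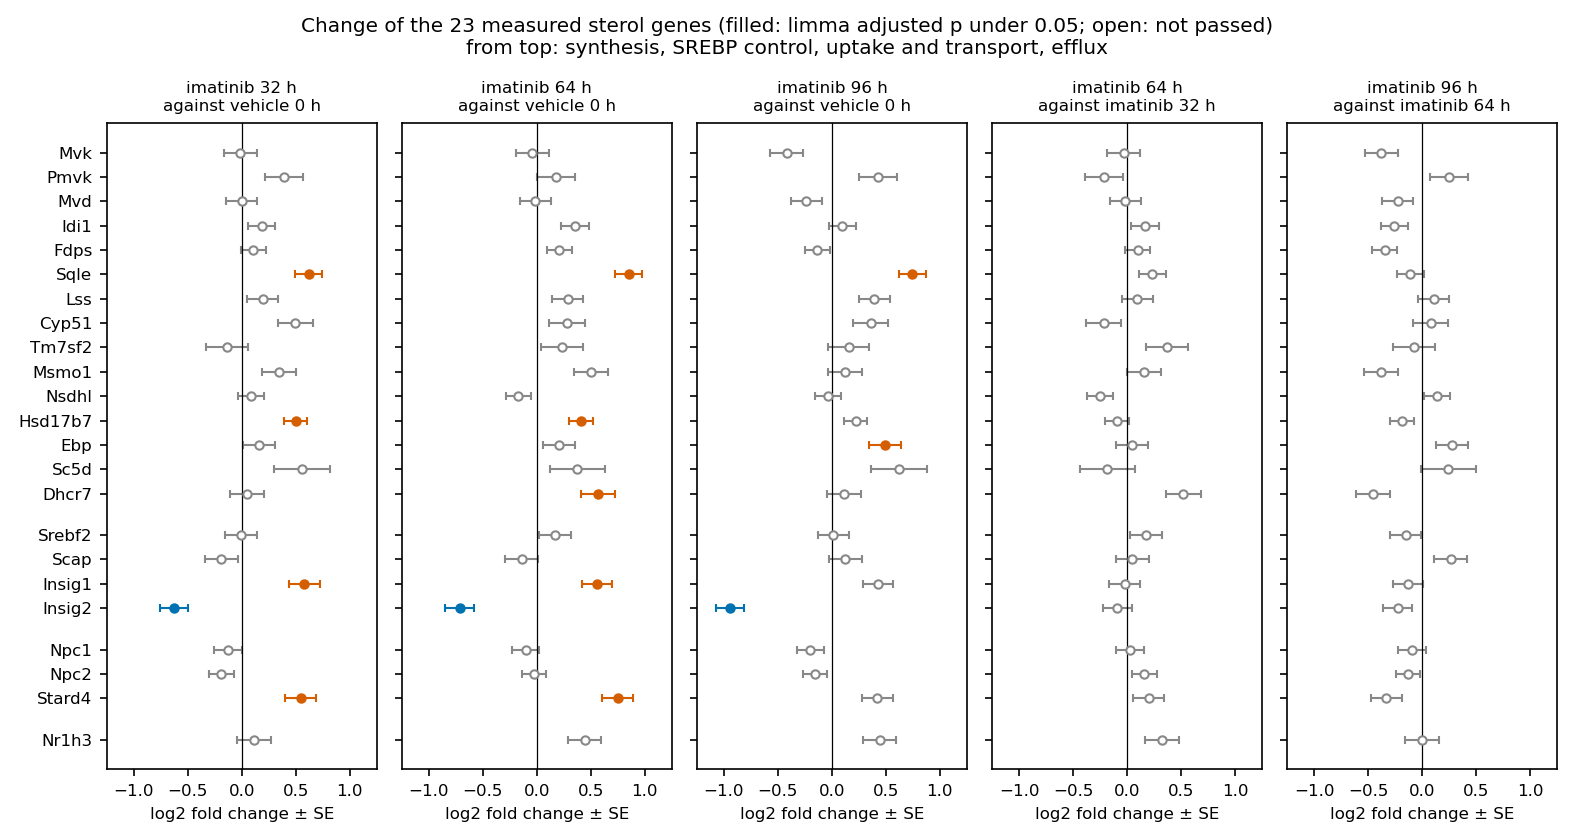
Log2 fold change with its SE for each of the 23 measured sterol genes in the 5 comparisons, with genes of synthesis at the top, then SREBP control, uptake and transport, and efflux. Filled points passed limma's adjusted p of 0.05; Sqle and Insig2 are filled in each comparison with vehicle, and no point is filled in 64 h against 32 h or 96 h against 64 h.

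Of the 18 genes of synthesis, 15 were measured; Acat2, Hmgcs1 and Fdft1 were not analysed here. Against vehicle, 2 of the 15 rose at 32 h, 3 at 64 h and 2 at 96 h, and none of the 15 fell in limma at an adjusted p under 0.05, where 1 was lower at an unadjusted p under 0.05, at 96 h. Among all genes 2.09%, 6.33% and 7.51% were called higher and 2.08%, 6.08% and 7.37% lower at these times, so with 15 genes the lack of a fall is near the background. The median log2 change of the 15 was 0.18, 0.28 and 0.15 at 32, 64 and 96 h.

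Sqle, squalene epoxidase, adds the oxygen to squalene at a slow, rate-limiting step of the pathway. On the vehicle arrays its log2 intensity was 9.40, 9.0 and 9.26, and on the 32 h arrays 9.81, 9.88 and 9.84. It was 10.16, 9.92 and 10.13 at 64 h, and 9.99, 9.998 and 9.91 at 96 h. On this probe each imatinib array was above each vehicle array, so imatinib and vehicle did not overlap. On the second kept probe the vehicle arrays read 6.53, 6.32 and 6.41. There the 32 h arrays (6.34, 6.83 and 6.17) and the 96 h arrays (6.74, 6.49 and 7.15) overlapped vehicle, while the 64 h arrays lay above it. The rise was 0.62 ± 0.13 (log2, SE, n = 3 against 3) at 32 h (limma adjusted p 0.0113), 0.85 ± 0.13 at 64 h (adjusted p 0.000319), and 0.75 ± 0.13, or 1.68-fold, at 96 h (adjusted p 0.000752). The call at 32 h was lost without vehicle replicate 2 (adjusted p 0.0621) and with the mean of its 2 kept probes (0.33, adjusted p 0.153).

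Hsd17b7 reduces the ketone left when the methyl groups of lanosterol are removed. Its log2 intensity was 10.11, 10.05 and 10.12 on the vehicle arrays and 10.61, 10.60 and 10.57 at 32 h. It was 10.56, 10.59 and 10.36 at 64 h and 10.30, 10.37 and 10.27 at 96 h. All 9 imatinib arrays lay above all 3 vehicle arrays, and the arrays of 32 h and 64 h overlapped. The difference from vehicle was 0.50 ± 0.11 at 32 h (adjusted p 0.0188) and 0.41 ± 0.11 at 64 h (adjusted p 0.0242), and at 96 h it was 0.22 ± 0.11 and did not pass (adjusted p 0.224). Leaving out any 1 of the 6 arrays ended the call at 32 h, with adjusted p from 0.0537 to 0.0774, although the log2 change stayed between 0.48 and 0.51. The call at 64 h ended without any 1 of the 3 vehicle arrays or without imatinib 64 h replicate 1 or 2, with adjusted p up to 0.0876.

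Ebp is the sterol isomerase that shifts a double bond in the ring, and Dhcr7 is the reductase of the step that yields cholesterol from its dehydro form. For Ebp the vehicle arrays read 8.82, 8.65 and 8.59 and the 96 h arrays 9.21, 9.40 and 8.92. It rose by 0.49 ± 0.15 at 96 h (adjusted p 0.0409), and was 0.16 ± 0.15 and 0.21 ± 0.15 above vehicle at 32 h and 64 h, where it did not pass. The call ended without imatinib 96 h replicate 1 or 2 or without vehicle replicate 2 or 3 (adjusted p 0.10 to 0.166). Dhcr7 is a dim probe, with vehicle arrays at 5.0, 5.18 and 5.13 and 64 h arrays at 5.67, 5.48 and 5.86. The lowest signal counted as detected lay between 4.79 and 4.89 on the arrays. Dhcr7 rose by 0.57 ± 0.16 at 64 h (adjusted p 0.0302), and did not pass at the other times, with differences of 0.05 ± 0.16 at 32 h and 0.11 ± 0.16 at 96 h. That call ended without any 1 of the vehicle arrays or without imatinib 64 h replicate 1 or 3, with adjusted p from 0.0582 to 0.116, and it ended without both arrays that stood apart (adjusted p 0.114).

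**Figure D2:**
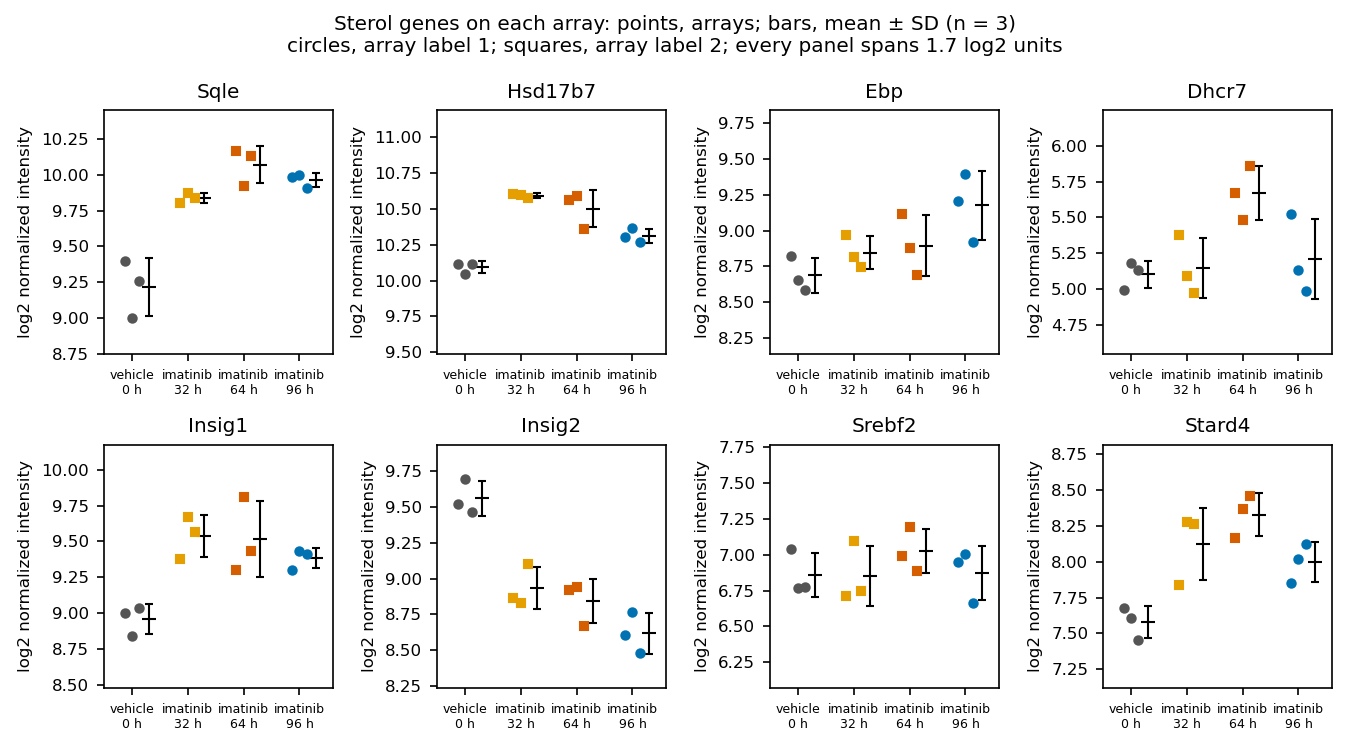
Log2 normalized intensity on each of the 12 arrays for 4 genes of synthesis (top), 3 of SREBP control and Stard4 (bottom), with the mean and SD of 3 arrays beside the points; circles are array label 1 and squares array label 2. Each panel spans the same range of 1.7 log2 units and shows the gene's probe with the highest mean. There, Sqle lies above and Insig2 below every vehicle array on every imatinib array, and Srebf2 overlaps between all groups.

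The other genes of synthesis did not pass in any comparison with vehicle. Among the early steps, mevalonate kinase Mvk read 5.59, 5.78 and 5.57 on vehicle arrays and 5.27, 5.43 and 4.98 at 96 h, a difference of -0.42 ± 0.15 (adjusted p 0.0916). Its differences at 32 h and 64 h were -0.01 and -0.04. Phosphomevalonate kinase Pmvk was 0.39 ± 0.18, 0.18 ± 0.18 and 0.43 ± 0.18 from vehicle at 32, 64 and 96 h. The early steps thus read on opposite sides of vehicle at 96 h without passing the test. The decarboxylase Mvd stood at 0.00, -0.01 and -0.24, each with an SE of 0.14. Idi1, which isomerizes the isoprene units, was 0.35 ± 0.13 above vehicle at 64 h (adjusted p 0.0923), with all 64 h arrays (8.55, 8.64 and 8.65) above all vehicle arrays (8.17, 8.19 and 8.41). Fdps joins those units into farnesyl diphosphate, and it differed from vehicle by 0.11, 0.21 and -0.14, each with an SE of 0.12.

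Of the genes after squalene, Msmo1, an oxidase that acts in the removal of methyl groups, came nearest to the threshold. It read 9.49, 9.17 and 9.17 in vehicle and 9.86, 9.78 and 9.69 at 64 h, which did not overlap. The difference was 0.50 ± 0.16 (adjusted p 0.0504), and it was 0.35 ± 0.16 at 32 h and 0.12 ± 0.16 at 96 h. Lanosterol synthase Lss differed by 0.19, 0.29 and 0.39, each with an SE of 0.14 (adjusted p 0.0919 at 96 h). The lanosterol demethylase Cyp51 differed by 0.50 ± 0.16 at 32 h (adjusted p 0.126), 0.28 at 64 h and 0.36 at 96 h, and its vehicle arrays were spread from 7.47 to 8.10. The dehydrogenase Nsdhl stayed within 0.17 of vehicle. The sterol reductase Tm7sf2 and the desaturase Sc5d were near the detection limit, detected on 10 and 9 of 12 arrays, with Sc5d on 1 of 3 vehicle arrays, 3 at 32 h, 2 at 64 h and 3 at 96 h. Sc5d differed by 0.56, 0.38 and 0.62 with an SE of 0.26, and Tm7sf2 by -0.14, 0.23 and 0.15 with an SE of 0.19.

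Of the 5 genes of SREBP control, Srebf1 did not pass the filter and 4 were measured. On their probes with the highest mean, Insig2 fell at all 3 times and Insig1 rose at 32 h and 64 h. Read in the same way, Srebf2 and Scap did not pass in any comparison.

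Insig1 encodes an anchor protein that holds Scap in the endoplasmic reticulum, and is itself a known target of SREBP. Its log2 intensity was 9.0, 8.84 and 9.03 on the vehicle arrays and 9.38, 9.67 and 9.56 at 32 h. It was 9.30, 9.81 and 9.43 at 64 h and 9.30, 9.44 and 9.41 at 96 h, so on this probe every imatinib array was above every vehicle array. On the other kept probes each imatinib group overlapped vehicle. The rise was 0.58 ± 0.14 at 32 h (adjusted p 0.0318) and 0.56 ± 0.14 at 64 h (adjusted p 0.0176), and the difference at 96 h was 0.43 ± 0.14 (adjusted p 0.0596). These calls rest on 1 of 3 kept probes: with the mean of the 3 the difference was 0.20 at 32 h (adjusted p 0.253) and 0.15 at 64 h (adjusted p 0.309), and both calls ended. At 32 h the call ended without any 1 of the vehicle arrays or without imatinib 32 h replicate 2 or 3 (adjusted p 0.0685 to 0.130), and without both arrays that stood apart (adjusted p 0.111). At 64 h it ended without vehicle replicate 2 (adjusted p 0.0751) or imatinib 64 h replicate 2 (adjusted p 0.0822).

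Insig2 encodes the second anchor protein of Scap, whose transcript in mouse liver is lowered by insulin. Its log2 intensity was 9.52, 9.69 and 9.46 on the vehicle arrays and 8.87, 8.83 and 9.10 at 32 h. It was 8.92, 8.94 and 8.67 at 64 h and 8.61, 8.76 and 8.48 at 96 h. On this probe no imatinib array reached any vehicle array. On the second kept probe, imatinib 32 h replicate 1 (9.13) lay above vehicle replicate 3 (9.10), while the 64 h and 96 h arrays lay below all vehicle arrays. On the probe with the highest mean, Insig2 fell by 0.63 ± 0.13 at 32 h (limma adjusted p 0.0148) and by 0.72 ± 0.13 at 64 h (adjusted p 0.00207). At 96 h it fell by 0.94 ± 0.13 (adjusted p 0.000146), 1.92-fold, the largest difference from vehicle among the 23 genes. The call at 32 h ended without vehicle replicate 2, or without imatinib 32 h replicate 1 or 2 (adjusted p 0.0568 to 0.0756).

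Srebf2 encodes SREBP-2, the factor that drives synthesis and uptake. It read 7.04, 6.77 and 6.77 in vehicle, 6.71, 7.09 and 6.75 at 32 h, 7.0, 7.20 and 6.89 at 64 h, and 6.95, 7.01 and 6.66 at 96 h, and the groups overlapped. At 32 h its difference from vehicle was -0.01 (95% interval -0.32 to 0.31). At 64 h the difference was 0.17 (interval -0.15 to 0.48), while at 96 h it was 0.01 (interval -0.30 to 0.33). With 3 arrays in a group, a change inside these intervals was not excluded. The intervals are not adjusted and do not give the smallest change that the test could call. Some other genes with larger differences did not pass. The escort Scap differed by -0.19, -0.14 and 0.12, each with an SE of 0.15. Of the 2 probes of Srebf1, which encodes the SREBP-1 proteins of fatty acid synthesis, 1 was detected on 0 of 12 arrays and the other on 2 of 12, so only an upper bound at the detection limit can be set.

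The promoters of the genes that were called can be read for the letters of known factors. Windows of 300 bases, from 250 before to 50 after the start, come from RefSeq on GRCm38.p6, with 34 windows for 25 of the 31 genes; Sqle and Stard4 have none in that table. The motifs were searched on both strands: CCAAT, the box of the factor NF-Y, which works beside SREBP, and TCACNCCAC, the core of the sterol regulatory element. They can share no more than an end letter. CCAAT lay in a window of 20 of the 25 genes (80%), in 14 of 15 of synthesis, 4 of 5 of SREBP control and 0 of 3 of efflux, and in 41.1% of the 27025 genes in the table. GGGCGG, called the GC box, was searched in the same way. It lay in 22 of the 25 genes (88%), and in 38.2% of the 27025. By group it lay in 14 of 15 genes of synthesis, 5 of 5 of SREBP control and 1 of 3 of efflux. A share above that of all genes was thus not particular to CCAAT. TCACNCCAC lay in 1 of 25, Hmgcs1, and in 1.44% of all genes. A match is a run of letters and not a site in use. Only this exact form within these 300 bases was searched, so the lack of a match does not show that a gene lacks a sterol regulatory element. The windows of Hsd17b7 (chr1:169969156-169969455, minus strand), Insig1 (chr5:28071162-28071461, plus strand) and Insig2 (chr1:121332540-121332839, minus strand, the 1 of its 3 windows that holds the box) are shown because these 3 genes were called in opposite directions. Capitals mark CCAAT or its complement ATTGG.
Hsd17b7: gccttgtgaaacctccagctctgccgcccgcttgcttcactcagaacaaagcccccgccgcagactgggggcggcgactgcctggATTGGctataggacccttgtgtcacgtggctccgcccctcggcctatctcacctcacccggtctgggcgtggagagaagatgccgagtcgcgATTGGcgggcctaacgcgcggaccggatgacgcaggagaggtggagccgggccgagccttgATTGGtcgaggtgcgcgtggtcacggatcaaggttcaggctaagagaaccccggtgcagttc
Insig1: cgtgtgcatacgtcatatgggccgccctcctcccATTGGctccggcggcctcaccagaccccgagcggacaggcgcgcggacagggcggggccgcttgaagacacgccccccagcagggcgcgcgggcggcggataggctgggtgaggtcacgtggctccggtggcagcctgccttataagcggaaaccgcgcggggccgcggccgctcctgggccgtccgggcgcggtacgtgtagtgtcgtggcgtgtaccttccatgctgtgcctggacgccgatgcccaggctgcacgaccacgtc
Insig2: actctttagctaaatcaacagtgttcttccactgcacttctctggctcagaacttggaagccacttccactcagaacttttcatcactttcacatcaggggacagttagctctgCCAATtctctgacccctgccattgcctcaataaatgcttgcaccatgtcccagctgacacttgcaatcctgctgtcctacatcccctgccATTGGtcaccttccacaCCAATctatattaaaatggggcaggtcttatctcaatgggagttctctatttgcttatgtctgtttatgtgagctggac
Hsd17b7 holds 3 boxes, Insig1 holds 1 and the window of Insig2 shown holds 3, while windows 2 and 3 of Insig2 hold 0. Ebp and Dhcr7, which were also called higher, are not shown. The window of Ebp holds 2 boxes and window 3 of Dhcr7 holds 2, while windows 1 and 2 of Dhcr7 hold 0. The box thus lies in a window of Hsd17b7, Insig1, Ebp and Dhcr7, which rose, and of Insig2, which fell. Sqle and Stard4, which also rose, could not be read. Which start of Insig2 these cells use was not tested.

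Of the 4 genes of uptake and transport within the cell, 3 were measured and 1 of them, Stard4, was called. Stard4 carries cholesterol between membranes and is a known SREBP-2 target. Its log2 intensity was 7.68, 7.60 and 7.46 on the vehicle arrays and 7.84, 8.28 and 8.26 at 32 h. It was 8.16, 8.36 and 8.46 at 64 h and 7.85, 8.02 and 8.12 at 96 h. Each imatinib array was above each vehicle array, and all 64 h arrays were above all 96 h arrays. Stard4 rose by 0.55 ± 0.14 at 32 h (adjusted p 0.0489) and by 0.75 ± 0.14 at 64 h, 1.68-fold (adjusted p 0.00284), and stood 0.42 ± 0.14 above vehicle at 96 h (adjusted p 0.0707). The call at 32 h ended without any 1 of the vehicle arrays or without imatinib 32 h replicate 2 or 3 (adjusted p 0.0833 to 0.171), and without both arrays that stood apart (adjusted p 0.180).

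Npc1 and Npc2, the pair of proteins that move cholesterol out of lysosomes, showed no call in limma against vehicle. Npc1 differed by -0.13, -0.10 and -0.20, each with an SE of 0.13, and Npc2 by -0.19, -0.03 and -0.16, each with an SE of 0.11. Npc2 was lower on all 3 arrays of 32 h (12.33, 12.40 and 12.53) and of 96 h (12.34, 12.55 and 12.45) than on any of vehicle (12.58, 12.68 and 12.56). The highest of these, 12.53 at 32 h and 12.55 at 96 h, lay close to the lowest vehicle array, 12.56. The 95% interval of Npc2 at 96 h ran from -0.40 to 0.09. Mylip, an LXR target that marks lipoprotein receptors for breakdown, was detected on 1 of 12 arrays by 1 probe and on 0 by the other.

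Of the 4 genes of efflux, 1 was measured. Nr1h2, one of the LXR receptors, was not analysed here. The sterol pumps Abca1 and Abcg1, which LXR switches on, did not pass the filter: the Abca1 probe was detected on 1 of 12 arrays and the Abcg1 probe on 0 of 12. The values of these probes, at most 4.84 and 4.66 on any array, set only an upper bound near the detection limit. Nr1h3, which encodes LXR-alpha, read 7.14, 7.26 and 7.25 in vehicle, 7.35, 7.47 and 7.19 at 32 h, 7.75, 7.29 and 7.93 at 64 h, and 7.83, 7.52 and 7.63 at 96 h. On this probe all arrays of 64 h and 96 h lay above all of vehicle, though the lowest at 64 h, 7.29, lay close to the highest of vehicle, 7.26. The differences were 0.12 ± 0.16, 0.44 ± 0.16 and 0.44 ± 0.16, and the last 2 did not pass (adjusted p 0.0835 and 0.0794). On the second kept probe, vehicle replicate 3 (5.75) lay above every 64 h and 96 h array.

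Between the times of imatinib, no sterol gene was called in limma. From 32 h to 64 h, within array label 2, 0 of 23 rose and 0 fell, against 0.656% higher and 0.578% lower of all genes. At an unadjusted p under 0.05, 1 gene (4.35%) was higher and 0 lower, where 6.03% of all genes were higher and 5.55% lower. The higher one was Dhcr7 (0.52 ± 0.16, adjusted p 0.166), named after its value was seen. From 64 h to 96 h, across array labels, 0 of 23 rose and 0 fell, against 0.118% higher and 0.137% lower, and at an unadjusted p under 0.05 it was 0 higher and 5 (21.7%) lower, where 5.92% of all genes were higher and 5.06% lower. Those 5 were Dhcr7 (-0.46 ± 0.16), Msmo1 (-0.38 ± 0.16), Mvk (-0.38 ± 0.15), Fdps (-0.35 ± 0.12) and Stard4 (-0.33 ± 0.14), named after their values were seen, with adjusted p from 0.252 to 0.398. The median log2 change of the 23 genes was 0.05 from 32 h to 64 h and -0.13 from 64 h to 96 h, with 14 and 7 of them above 0. For Sqle the differences were 0.23 (95% interval -0.04 to 0.50) and -0.11 (-0.38 to 0.16), and for Insig2 -0.09 (-0.37 to 0.19) and -0.23 (-0.51 to 0.05).

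Several genes were read by more than 1 probe, and these did not always move together. The list had 52 probes, of which 36 passed the filter, and 9 genes had more than 1 that passed. A gene's value above is from its probe with the highest mean. The 2 other Insig1 probes differed from vehicle by 0.02 and -0.02 at 32 h, -0.15 and 0.02 at 64 h, and 0.19 and 0.24 at 96 h, with SEs of 0.13, and did not pass. At 96 h, with the mean of its probes in place of the highest, Insig1 was called (0.29, adjusted p 0.0361). The second Insig2 probe was lower at each time, by -0.22, -0.39 and -0.57 with SEs of 0.13, and passed at 96 h (adjusted p 0.00680). For Sqle the second probe read 0.03, 0.35 and 0.38 with SEs of 0.19, none called. With the mean of its probes Sqle was called at 64 h (0.60) and 96 h (0.56). The 4 Nsdhl probes ranged from -0.17 to 0.43 at 64 h. The second Nr1h3 probe read 0.03, 0.06 and 0.32.

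**Figure D3:**
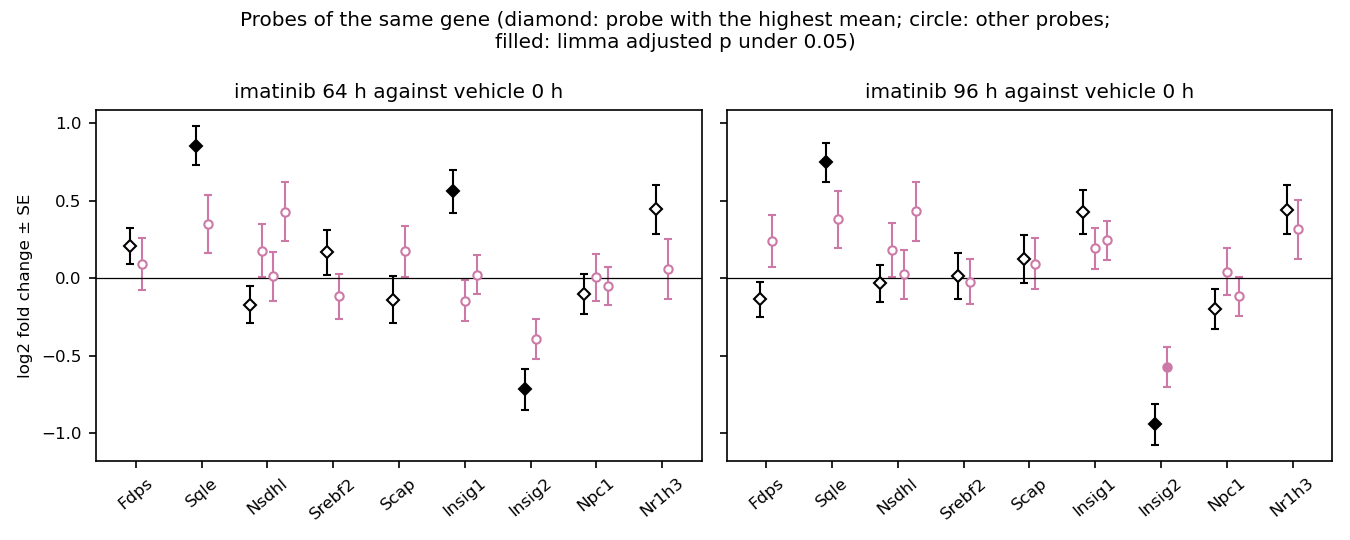
Log2 fold change with SE of each kept probe for the 9 sterol genes that have more than 1, at 64 h and 96 h against vehicle; diamonds are the probe with the highest mean, circles the others, filled symbols passed the test. The 2 Insig2 probes lie below 0 at both times, while the Insig1 circles lie near 0 at 64 h and the Nsdhl probes lie on both sides of 0.

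Other genes of lipid metabolism, from lists chosen with earlier results of these data known, were counted beside the sterol genes. Of 12 genes of fatty acid synthesis 10 were measured, and Acly, which makes the acetyl-CoA that both pathways use, fell by 0.45 ± 0.11 at 64 h (adjusted p 0.0115) and 0.44 ± 0.11 at 96 h (adjusted p 0.0108). Its log2 intensity was 12.20, 12.21 and 12.11 in vehicle and 11.73, 11.69 and 11.78 at 96 h. The desaturase Scd2 rose by 0.78 ± 0.22 at 64 h (limma adjusted p 0.0298), and the list held no other call against vehicle. At 64 h this was 1 of 10 (10%) higher and 1 lower, against 6.33% and 6.08% of all genes. At 96 h it was 0 higher and 1 lower, against 7.51% and 7.37%, so both are near the background. Of 7 genes that cleave SREBP or degrade sterol-sensing proteins 6 were measured. The protease gene Mbtps1, which makes the first cut in SREBP, fell by 0.50 ± 0.14 at 64 h (limma adjusted p 0.0334). That is 1 of 6 (16.7%) lower at 64 h, against 6.08% of all genes, and the list held no other call against vehicle. Of 7 isoprenoid genes 4 were measured. On their probes with the highest mean, 0 were called in limma, and 0 had an unadjusted p under 0.05 in any of the 5 comparisons. With 4 genes the lack of calls is near the background. The other kept probe of Fnta, detected on 11 of 12 arrays, was not part of this count. Its mean log2 intensity was 5.11 in vehicle, 5.49 at 32 h, 5.74 at 64 h and 5.04 at 96 h.

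Of 12 genes of other uptake, storage and oxysterol handling, 8 were measured. At 96 h 2 rose and 3 fell, against 7.51% higher and 7.37% lower of all genes, and at 64 h 2 rose and 1 fell, against 6.33% and 6.08%. Lipa, the lysosomal lipase that frees cholesterol from its esters, rose by 0.50 ± 0.12 at 64 h (adjusted p 0.0149) and 0.54 ± 0.12 at 96 h (adjusted p 0.00813). Cyp7b1, which hydroxylates oxysterols, rose by 0.65 ± 0.15 and 0.61 ± 0.15 (adjusted p 0.0125 and 0.0147). Both were thus higher at the 2 later times. The lipoprotein receptor Lrp1 fell by 0.65 ± 0.12 and 0.50 ± 0.12 (adjusted p 0.00158 and 0.00874). Lrp8, another receptor of this family, was detected on 3 of 3 vehicle arrays and 0 of 3 at 96 h, so it was at least 1.40-fold lower at 96 h (adjusted p 0.00528).

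Markers of cell types were read beside these results. The stromal list had 7 of 8 genes measured, Thy1 not passing, and its summed signal, in linear normalized intensity without the offset of 16, was 15420 to 16990 on the vehicle arrays and 13510 to 14140 at 96 h. At 96 h Vim fell by 0.87 ± 0.12 and the collagen gene Col3a1 rose by 0.41 ± 0.11, while 5 of the 7 genes lay above 0 with a median log2 change of 0.25. Of the adipocyte list 5 of 8 were measured, and Plin1, Fabp4 and Cidec did not pass the filter. The summed signal of those 5 was 6005 to 6465 on vehicle arrays. At 32 h it was 9103 to 9939, at 64 h 13510 to 15090, and at 96 h 14330 to 15500. Lpl was the brightest of these 5, with mean log2 intensity 12.01 in vehicle and 13.43 at 96 h, so it weighs most in the sum. At 96 h Lpl rose by 1.42 ± 0.12 and the adipokine gene Adipoq by 3.04 ± 0.11. Cd36, detected on 0 of 3 vehicle arrays, was at least 2.37-fold higher. The regulator Pparg differed by 0.03 ± 0.16 and Lep by -0.03 ± 0.16. Of the macrophage list 4 of 8 were measured, with Ptprc, Itgam and Marco not passing and Cd68 not analysed here, and its sum was 100.6 to 146.9 in vehicle and 232.2 to 282.1 at 96 h. There, Lyz2 rose by 1.93 ± 0.15 and Cd14 fell by 0.96 ± 0.21. Hepatocyte genes passed in 0 of 5 cases. The adipocyte sum was thus higher in each imatinib group than in vehicle, as Sqle was, while Insig2 was lower, and the part of these cells' genes in the sterol results was not tested.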

How the data were processed

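Per the file headers, the table that holds raw values pairs each probe's intensity on an array, linear and not normalized, with a detection p-value. A second table deposited by the authors holds normalized intensity, and log2 of it differed from the values used here by at most 0.0193. The submitters' processing notes name limma, with no version or setting.

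In R 4.3.3 with limma 3.58.1, neqc took the background from the deposited detection p-values, used an offset of 16 and quantile-normalized all 12 arrays to log2 values. Probes with detection p under 0.05 on at least 3 arrays were kept, 18897 of 45281. The platform annotation gave a single symbol for 34885 probes, several for 18 and none for 10378. A gene was read from its kept probe with the highest mean. A model of 4 group means (lmFit, eBayes, 8 residual degrees of freedom) was fitted to all 12 arrays, and p-values were adjusted by Benjamini-Hochberg over all kept probes. A change had adjusted p under 0.05, and a fold against a group where no array detected a gene is a bound set by the lowest detected signal.

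The fit was run on simulated data with independent normal noise, as a check of the code. Its rule for recovered changes covered only changes larger than those of the sterol genes. It therefore does not show how often changes of their size would be called. Replicate numbers did not pair the samples: deviations of same-numbered arrays correlated between -0.02 and 0.05. The sterol genes, the other lists, the markers and the rule for named genes (all sterol genes, and up to 4 called genes of each other list) were chosen with earlier results of these data known. Alternatives were no background correction, median centring, array labels normalized apart, only the 6 arrays in question, no detection filter, a stricter one (every array of a group at detection p under 0.01), an offset of 50, trended and robust variances, the replicate block, the deposited normalized values, the mean of a gene's probes, each array left out, and 2 arrays that stood apart left out. Figures used Python 3.11.15, matplotlib 3.10.9 and pandas 2.3.3.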

Additional observations from a re-analysis of the deposited data

How the results depend on the processing

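Under the alternatives, 0 called results reversed, while 69 values of single genes that were not called changed sign. The calls of Sqle and Insig2 at 64 h and 96 h and of Stard4 at 64 h held under all 17 alternatives run for each. The call of Dhcr7 at 64 h was lost in 9 of 17, among them no background correction, no detection filter, and trended and robust variances. With only the 6 arrays compared, Hsd17b7 at 32 h and 64 h, Stard4 at 32 h and Ebp at 96 h lost their calls. Stard4 at 32 h and Ebp at 96 h also lost them with no detection filter. At 96 h against vehicle, the 2 members higher became 4 with the mean of probes, median centring or the strict filter, 5 with no background correction, an offset of 50 or trended and robust variances, and 1 with no detection filter, and leaving out each array gave 1 to 2. Insig1 at 96 h passed in 7 alternatives, Stard4 in 6 and Nr1h3 in 3. At 32 h the 4 members higher became 2 with the mean of probes, with only the 6 arrays compared or without both arrays that stood apart, and leaving out each array gave 0 to 3 higher and 0 to 1 lower. At 64 h the 5 members higher became 8 with an offset of 50, and leaving out each array gave 2 to 4. Msmo1 passed at 64 h in 8 alternatives, Nr1h3 in 4 and Idi1 in 3, and Cyp51 at 32 h in 4. From 64 h to 96 h the 0 members lower became 1 with no background correction, Fdps (-0.31, adjusted p 0.0483). With the replicate block the counts of members higher were 4 at 32 h, 6 at 64 h and 2 at 96 h. The leave-out settings had fewer arrays, and the cause of these differences was not tested. Signal over background limits the dim probes, since Abca1, Abcg1, Mylip and Srebf1 gave only upper bounds and Dhcr7, Sc5d and Tm7sf2 lay near the detection limit.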
